A study of Mus musculus with 8 samples.

Results

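Mitochondrial DNA encodes 13 of the proteins of the respiratory chain, and 10 of these genes, all subunits of complex I or complex IV, were followed here across every library of the series. Complex I (NADH:ubiquinone oxidoreductase) is represented by 7 genes, mt-Nd1, mt-Nd2, mt-Nd3, mt-Nd4, mt-Nd4l, mt-Nd5 and mt-Nd6. Complex IV (cytochrome c oxidase) is represented by 3 genes, mt-Co1, mt-Co2 and mt-Co3. The genes were matched by symbol, and 10 of 10 were found both among the 54532 genes listed in the table of the PTS + RS and RS libraries and among the 28229 genes listed in the table of the RGFP109 and vehicle libraries. The mt-Co1 gene is not the gene of cyclooxygenase-1 (Ptgs1), which is also abbreviated Cox1.

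RNA-seq was performed on brain tissue of C57BL/6 mice in 8 libraries, 2 in each of 4 groups, all labelled as day 21. PTS + RS mice had a photothrombotic stroke of the cortex followed by repeated restraint stress, and RS mice had the restraint stress with no stroke. RGFP109 mice and vehicle mice were both PTS + RS mice. RGFP109 is a histone deacetylase inhibitor that the study used against HDAC3 and describes as selective for HDAC1 and HDAC3. It was dissolved in DMSO, diluted in a cyclodextrin and acetate solution and injected subcutaneously once per day at 60 mg/kg. The vehicle libraries carry the title NaCl. The labels place both PTS + RS and both RS libraries in cortex, whereas in the RGFP109 and vehicle groups replicate 1 is labelled cortex and replicate 2 amygdala. Whether a library stands for 1 mouse or for a pool is not given in the sources used here, so p-values measure the spread between these libraries only.

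In mice, mitochondrial DNA is a small circle transcribed from both strands into long precursors. The precursors are cut, mostly at the tRNAs, into mRNAs, most of which carry short poly(A) tails. All of these mRNAs except mt-Nd6 come from the precursor of 1 strand, and mt-Nd6 comes from the other. The encoded proteins form the membrane core of their complexes and are assembled with a larger number of subunits made from nuclear genes. Pieces of mitochondrial DNA have also been inserted into nuclear chromosomes, where they are annotated as pseudogenes. A short read from a gene with such a copy can match both places equally well.

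Each library held between 15902013 and 21712033 counts, of which genes of chromosome MT took 3.59% to 4.55% and the 10 genes 2.52% to 3.22%. Of the counts on the 13 mitochondrial mRNAs, 81.9% to 83.8% fell on the 10 genes. Some libraries stood apart in brain region markers. The summed CPM (the read count scaled to the library's depth after TMM normalization) of 10 striatum markers was 1373 and 1514 in the replicate 2 libraries of RGFP109 and vehicle, against 174 to 257 in the other 6. Amygdala markers summed to 459 and 533 in these libraries labelled amygdala and to 537 to 679 in the other 6. Such sums weight the abundant markers most. Gene by gene, 8 of the 10 amygdala markers had higher fitted values in replicate 2 than in replicate 1 of RGFP109 and vehicle. Olfactory bulb markers summed to 1230 in vehicle replicate 1 and to at most 124 elsewhere, and S100a5 had 1131 counts there and 0 in the other 7 libraries. Choroid plexus markers summed to between 15.8 and 3906.

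Several of the 10 genes have near-identical copies in the nucleus, and these were located first because they bear on what could be counted. In the GRCm38 annotation, 7 pseudogenes on the minus strand of chromosome 1 between positions 24611535 and 24616188 repeat genes that lie side by side in mitochondrial DNA, between MT positions 6390 and 11042. That stretch holds the end of mt-Co1, all of mt-Co2, mt-Co3, mt-Nd3 and mt-Nd4l, and the first part of mt-Nd4, together with mt-Atp6, an ATP synthase subunit. Gm28661 matched 681 of the 684 bases of mt-Co2 without a mismatch, Gm28437 matched 783 of the 784 bases of mt-Co3, and Gm10222 matched 294 of the 297 bases of mt-Nd4l. Gm28438 matched 345 of the 348 bases of mt-Nd3 with 1 mismatch. For mt-Nd4, Gm28439 covered 63.6% of the gene at 100% identity, and for mt-Co1, Gm29216 covered 31.3% at 99.8%. More diverged copies covered 49.1% of mt-Nd2 (Gm13339, 96.7% identity) and 52.3% of mt-Nd5 (Gm4076, 95.2% identity). No copy of at least 95% identity over at least 20% of the gene was found for mt-Nd1 and mt-Nd6.

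The whole mt-Nd4l gene (chrMT:9877-10173, plus strand) is shown because a single 297-base gene carries nearly all of its letters a second time in the nucleus. The lower-case letters are those that Gm10222 repeats without a change, and the 3 capitals at the end are the bases outside the match.
mt-Nd4l: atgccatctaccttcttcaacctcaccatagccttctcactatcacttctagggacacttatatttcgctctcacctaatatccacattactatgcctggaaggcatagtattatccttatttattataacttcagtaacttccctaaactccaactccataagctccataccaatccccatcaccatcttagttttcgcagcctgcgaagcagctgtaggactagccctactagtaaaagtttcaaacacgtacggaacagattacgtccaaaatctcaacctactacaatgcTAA

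The starts of mt-Nd3 (chrMT:9459-9491) and of its copy (chr1:24613087-24613119, minus strand) show the only difference between them, T3C, in capitals. Positions are counted from 1 at the first base of the mitochondrial gene, and the gene's base is written first.
mt-Nd3: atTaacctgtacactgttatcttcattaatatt
Gm28438: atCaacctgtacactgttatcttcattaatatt

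For mt-Co1 the start of the copied end (chrMT:6390-6423) is set beside its copy (chr1:24616155-24616188, minus strand), which differs by A1066T in capitals.
mt-Co1: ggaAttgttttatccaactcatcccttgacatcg
Gm29216: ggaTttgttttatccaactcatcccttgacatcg

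A more diverged copy of the whole mt-Co1 gene, Gm13340 on chromosome 2, is shown for contrast. It has 37 mismatches over 1545 bases (97.6% identity). Capitals mark A462G, A468G, T501C and C519T within 60 bases of mt-Co1 (chrMT:5787-5846) and of the copy (chr2:22589129-22589188, minus strand).
mt-Co1: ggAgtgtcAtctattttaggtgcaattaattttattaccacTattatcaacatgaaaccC
Gm13340: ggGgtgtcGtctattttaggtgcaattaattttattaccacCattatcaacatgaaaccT

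Each gene was cut into windows of 120 bases, the read length given in the study's methods, and each window was looked for in all other annotated transcripts. The share of windows with an exact second match was 99.8% for mt-Co3, 99.5% for mt-Co2, 98.3% for mt-Nd4l and 97.4% for mt-Nd3. It was 60.1% for mt-Nd4, 27.3% for mt-Co1, 1.09% for mt-Nd2 and 0% for mt-Nd1, mt-Nd5 and mt-Nd6. Thus 4 genes had hardly any sequence of their own at this read length, mt-Nd4 had some, and the other 5 had most or all of it.

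Levels were compared between genes as FPKM, counts divided by gene length and by a depth factor of the library. The 4 genes copied in full had the 4 lowest levels of the 10. The lowest FPKM of any of the other 6 genes in any library, 1520, was 10.5 times the highest FPKM of any of the 4, 145. The median of the gene means was 2558 FPKM for the 6 and 61.7 FPKM for the 4, a ratio of 41.5. In counts, the 4 genes took between 0.277% and 0.625% of all counts on the 10 genes.

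**Figure D1:**
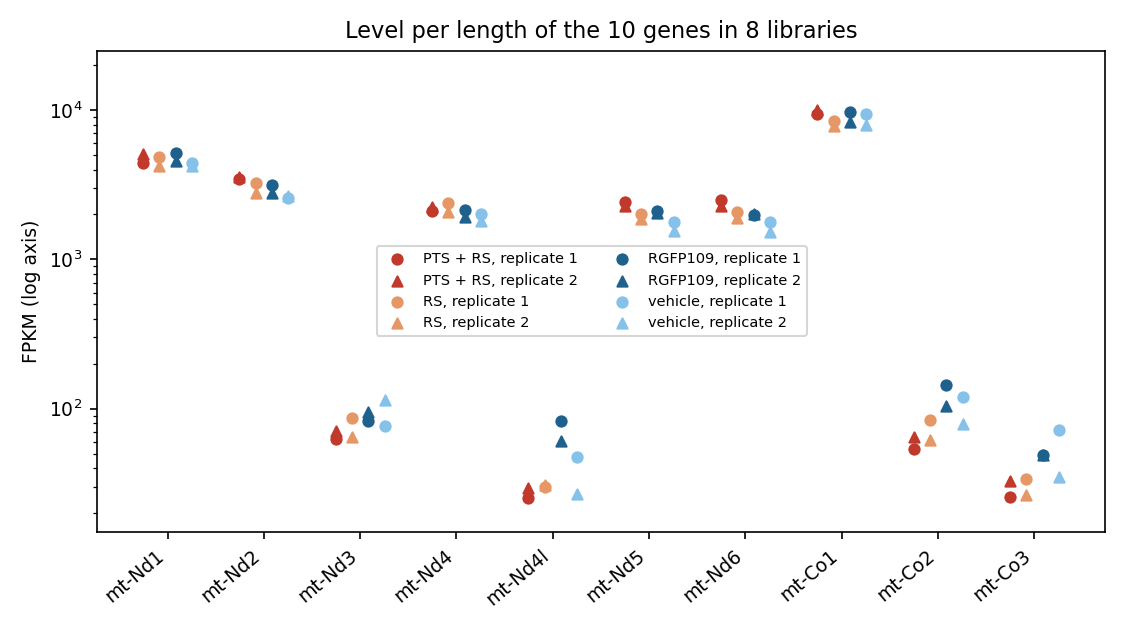
FPKM on a log axis for each of the 10 genes, with 1 point per library coloured by group (circles, replicate 1; triangles, replicate 2). Points of mt-Nd3, mt-Nd4l, mt-Co2 and mt-Co3 lie between 25.3 and 145 FPKM, and those of the other 6 genes at 1520 FPKM or more.

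Among the complex I genes, mt-Nd1, part of the membrane arm next to the quinone site, had the highest level with 4600 ± 365 FPKM (mean ± SD, n = 8 libraries). It was followed by mt-Nd2, another membrane-arm subunit, with 3028 ± 386 FPKM. In each of the 8 libraries mt-Nd1 was above mt-Nd2, and mt-Nd2 was above mt-Nd4. The next levels, 2089 ± 175 FPKM for mt-Nd4, 2013 ± 304 for mt-Nd6 and 2013 ± 279 for mt-Nd5, could not be ordered, since mt-Nd4 was above mt-Nd6 in 5 of 8 libraries and mt-Nd6 above mt-Nd5 in 5 of 8. The mt-Nd4 and mt-Nd5 proteins are large antiporter-like subunits of the proton-pumping arm. The place of mt-Nd4 in this order is uncertain, since 60.1% of its windows were shared. Rescaled to the windows found nowhere else, its mean was 5239 FPKM, against 4600 for mt-Nd1 and 3061 for mt-Nd2. This rescaling assumes that no read from a shared window was counted, which was not tested.

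The 2 small complex I genes were far below these. For mt-Nd3, whose protein links the arms of the complex, the level was 81.7 ± 17.03 FPKM, and for mt-Nd4l it was 41.6 ± 20.5 FPKM. In all 8 libraries mt-Nd3 was above mt-Nd4l. The genes mt-Nd4l and mt-Nd4 are read from 1 continuous mRNA, overlapping by 7 bases, yet mt-Nd4 was at between 26.2 and 83.8 times the FPKM of mt-Nd4l in the same library. The overlap (chrMT:10147-10193) is in capitals.
mt-Nd4l and mt-Nd4: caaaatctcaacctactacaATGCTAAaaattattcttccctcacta

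In complex IV, mt-Co1, which carries the catalytic haem-copper centre, had the highest FPKM of the 10 genes, 8897 ± 857. It held 36.9% to 42.2% of the counts on mitochondrial mRNAs. The other core subunits, which sit with mt-Co1 in every copy of the enzyme, had FPKM lower by orders of magnitude. With only 3 and 1 windows found nowhere else, the order of mt-Co2 and mt-Co3 against mt-Co1 is uncertain. For mt-Co2, which receives electrons from cytochrome c, the level was 89.1 ± 31.7 FPKM, and for mt-Co3 it was 40.5 ± 15.5 FPKM. The ratio of mt-Co1 to mt-Co2 in FPKM ranged from 66.6 in RGFP109 replicate 1 to 175 in PTS + RS replicate 1. Neighbours in the low part of the order were not separated, with mt-Co2 above mt-Nd3 in 3 of 8 libraries and mt-Nd4l above mt-Co3 in 3 of 8.

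**Figure D2:**
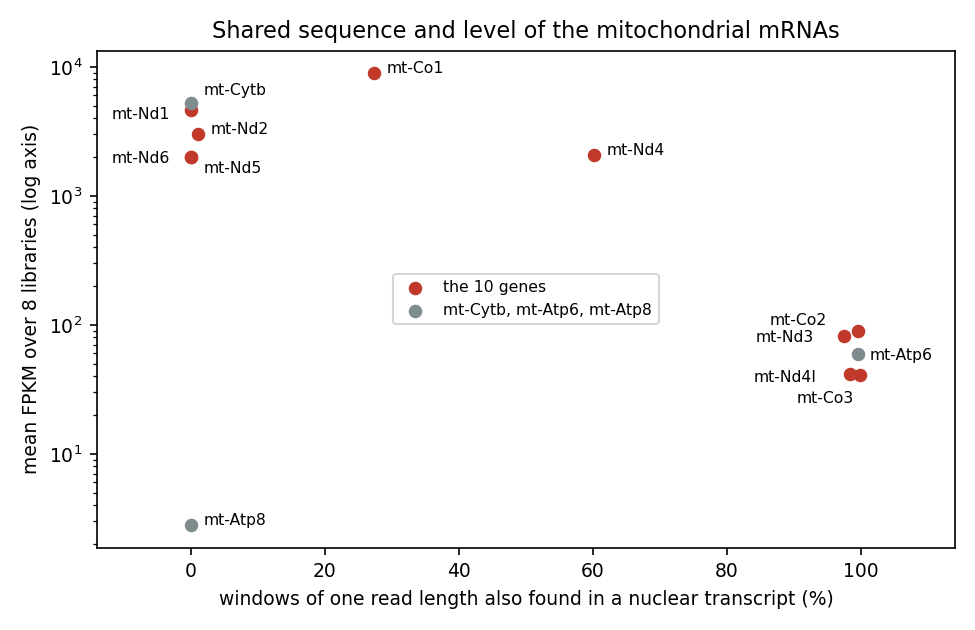
Percent of windows of 120 bases that also occur in a nuclear transcript (horizontal) against mean FPKM over 8 libraries on a log axis (vertical), for the 13 mitochondrial mRNAs. The 4 low genes of the 10 and mt-Atp6 sit at 97.4% or more, while mt-Atp8 is low at 0%.

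The 3 other mitochondrial mRNAs were set beside this pattern. Cytochrome b of complex III (mt-Cytb), with 0% of its windows shared, had 5252 ± 494 FPKM, and mt-Atp6, with 99.5% shared, had 59.3 ± 31.8 FPKM. The short gene mt-Atp8 was also low, with 2.79 ± 1.21 FPKM, but had 0% of its windows in another annotated transcript. It lies between the copied genes mt-Co2 and mt-Atp6, and no copy of it was found among the annotated transcripts. The copied stretch, with mt-Atp8 inside it, measured 4653 bases in mitochondrial DNA and 4654 bases on chromosome 1. Sequence outside annotated transcripts was not searched, so mt-Atp8 is not shown to lack a copy. How the authors' counting treated reads with more than 1 match was not given in the sources used here, and its part in the low levels was not tested. The levels of mt-Co2, mt-Co3, mt-Nd3 and mt-Nd4l, and their differences between groups, are therefore uncertain. Those of mt-Nd4, with 60.1% of its windows shared, and of mt-Co1, with 27.3%, are uncertain in part.

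The nuclear copies were themselves listed with counts. For mt-Co2 the deposited count was between 0.931 and 1.73 times that of Gm28661 in the same library, and in PTS + RS replicate 1 it was 638 against 634. For mt-Co3 the ratio to Gm28437 was 1.30 to 1.73, and for mt-Nd4l to Gm10222 it was 1.56 to 2.82. For mt-Nd3, the count was 8.31 to 19.8 times that of Gm28438. In the part-copied genes the mitochondrial gene was far above its copy, 104 to 187 times for mt-Nd4 over Gm28439 and 422 to 1268 times for mt-Co1 over Gm29216. The source of the reads counted on the copies cannot be told apart from these tables.

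A second pair of genes was close in another sense. The gene mt-Nd6 (chrMT:13552-14070), on the minus strand, and mt-Nd5 (chrMT:11742-13565), on the plus strand, overlap by 14 bases, in capitals within chrMT:13532-13585.
mt-Nd5 and mt-Nd6: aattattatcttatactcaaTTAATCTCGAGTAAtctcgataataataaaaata

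Although these mRNAs are made from opposite strands, mt-Nd6 was at 0.947 to 1.04 times the FPKM of mt-Nd5 in the 8 libraries, with a median ratio of 1.00. Their deviations from the table means moved together with r = 0.99 over the 8 libraries, the highest of the 45 pairs among the 10 genes. The strand setting of the counting was not given in the sources used here. Without strand, reads from the opposite strand over the mt-Nd6 gene cannot be told apart from mt-Nd6 reads.

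**Figure D3:**
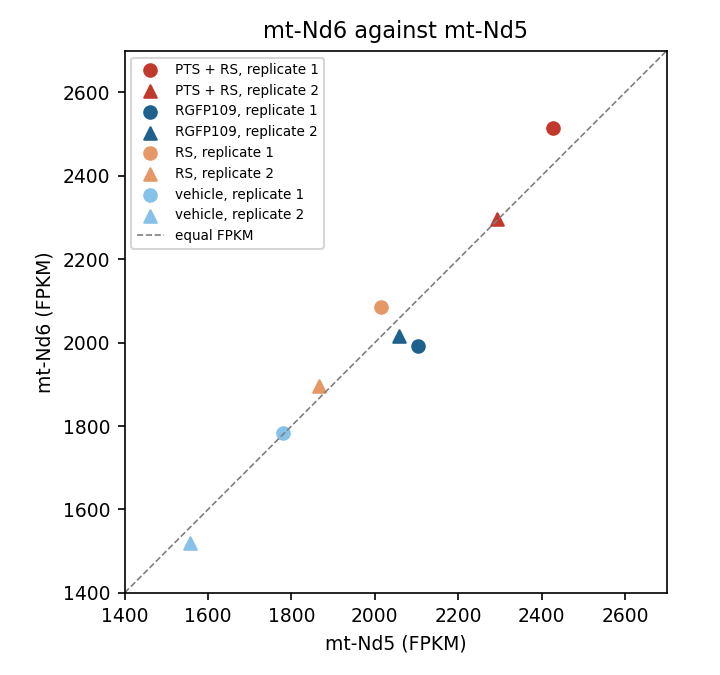
FPKM of mt-Nd5 (horizontal) and mt-Nd6 (vertical), 1 point per library coloured by group, with the line of equal FPKM dashed. All 8 points lie near the line, from vehicle replicate 2 (1557 and 1520 FPKM) to PTS + RS replicate 1 (2428 and 2515 FPKM).

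The comparison of PTS + RS with RS asks what a stroke adds to restraint stress in the damaged cortex. None of the 10 genes was called in edgeR's quasi-likelihood test (0 of 10 at an adjusted p under 0.05), while 624 of 17581 tested genes were, 3.55% of all. DESeq2 and limma-voom also called 0 of the 10. The median log2 fold change (PTS + RS over RS) was 0.02 over the 10 genes and -0.0015 over all tested genes, with 5 genes above 0 and 5 below. At an unadjusted p under 0.05 there were 2 of the 10, mt-Nd5 and mt-Nd6, beside 17.9% of all tested genes.

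Of the complex I genes, mt-Nd5 had 4471 and 4205 CPM in the PTS + RS libraries and 3696 and 3419 CPM in the RS libraries. The groups did not overlap, and the log2 fold change was 0.29 ± 0.11 (SE; adjusted p = 0.252). For mt-Nd6 the values were 1318 and 1198 CPM against 1089 and 988 CPM, again without overlap, with a log2 fold change of 0.28 ± 0.11 (adjusted p = 0.234). These are the pair on opposite strands described above. For mt-Nd2, 3606 and 3742 CPM stood against 3413 and 2885 CPM, and the log2 fold change was 0.22 ± 0.12 (adjusted p = 0.406).

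The other complex I genes differed by less or overlapped. The log2 fold change was 0.07 ± 0.13 for mt-Nd1 and -0.03 ± 0.12 for mt-Nd4. Among the copied genes it was -0.19 ± 0.16 for mt-Nd3 and -0.14 ± 0.17 for mt-Nd4l, the latter with 7.59 and 8.80 CPM in PTS + RS below 8.88 and 9.21 CPM in RS.

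The 3 complex IV genes did not share a direction. The gene mt-Co1 had 14730 and 15610 CPM in PTS + RS, above the 13160 and 12150 CPM of the RS libraries, with a log2 fold change of 0.26 ± 0.13 (adjusted p = 0.357). For mt-Co2, 37.2 and 44.3 CPM in PTS + RS overlapped 58.2 and 42.1 CPM in RS, and the log2 fold change was -0.30 ± 0.17 (adjusted p = 0.398). The size rested on single RS libraries, at -0.05 without RS replicate 1 and -0.52 without RS replicate 2, not called in either. The log2 fold change was -0.05 ± 0.18 for mt-Co3. Both PTS + RS libraries were above both RS libraries in 4 of the 10 genes, against 25.7% of all tested genes, and below them in 1 gene, against 24.5%.

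The intervals give the sizes of difference that these libraries allow. The 95% interval of the fold (PTS + RS over RS) was 1.01 to 1.47 for mt-Nd5, 0.967 to 1.49 for mt-Co1, 0.844 to 1.30 for mt-Nd1 and 0.62 to 1.07 for mt-Co2. Folds of 2 or more lay outside the interval for each of the 10 genes. Leaving out a PTS + RS library changed the count: without PTS + RS replicate 1, mt-Nd5 (adjusted p = 0.0309) and mt-Co1 (adjusted p = 0.00788) were called, and without PTS + RS replicate 2, mt-Nd5 (adjusted p = 0.00936) and mt-Nd6 (adjusted p = 0.00873). With these libraries left out, 1771 and 2691 genes were called in all, and the lone library was assumed to vary like the RS group.

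**Figure D4:**
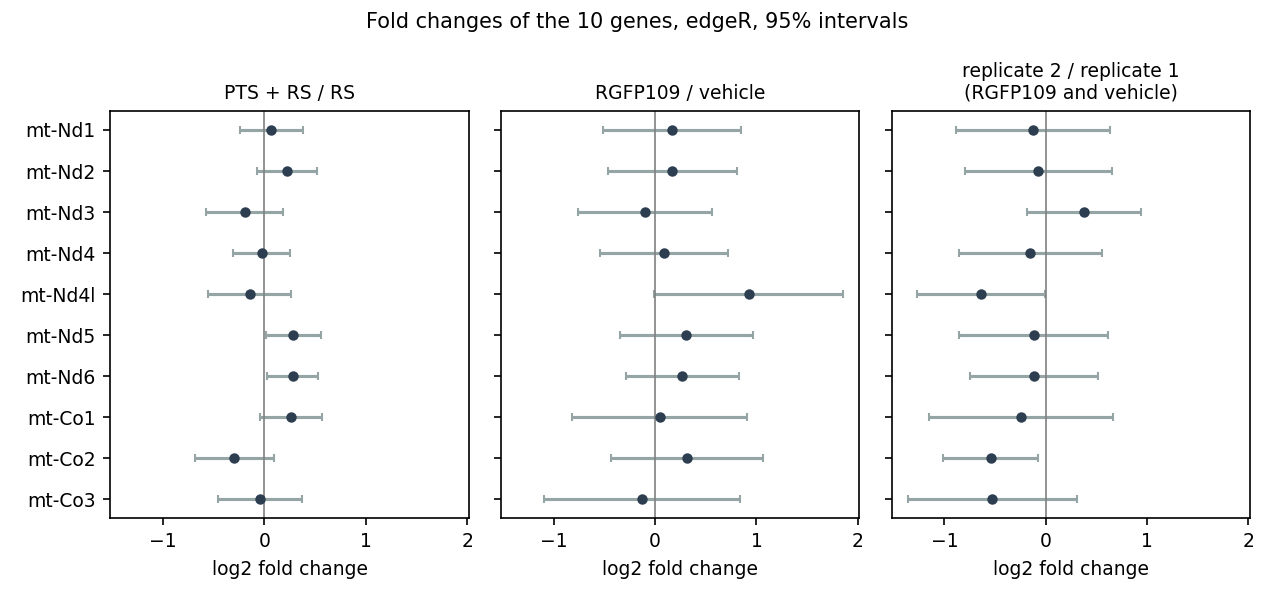
Log2 fold change of each of the 10 genes with its 95% interval (points and bars) in PTS + RS over RS, RGFP109 over vehicle, and replicate 2 over replicate 1 among the RGFP109 and vehicle libraries. The intervals of mt-Nd5 and mt-Nd6 in the first panel start just above 0, at 0.02 and 0.03, and that of mt-Nd4l in the second reaches 1.85.

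The nuclear subunits of the same complexes gave calls in this comparison, and the difference between them and the mitochondrial genes was not tested. Of 37 nuclear complex I subunits, 7 fell, 0 rose and 30 had a log2 fold change below 0, with a median of -0.31. Over all 17581 tested genes, 521 were called higher and 103 lower. Ndufa2 fell by 1.39 on the log2 scale (39.6 ± 4.62 CPM in RS and 15.1 ± 0.934 CPM in PTS + RS, SD, n = 2 each; adjusted p = 0.00246). Ndufb6 fell by 0.97 (adjusted p = 0.0084) and Ndufa1 by 0.93 (adjusted p = 0.0119), all accessory subunits. Of 15 nuclear complex IV subunits 0 were called, with a median of -0.15. At an unadjusted p under 0.05, 4 were lower, Cox7a2 and Cox5b among them, beside 17.9% of all tested genes in either direction. These lists were chosen with earlier results of these data known.

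**Figure D5:**
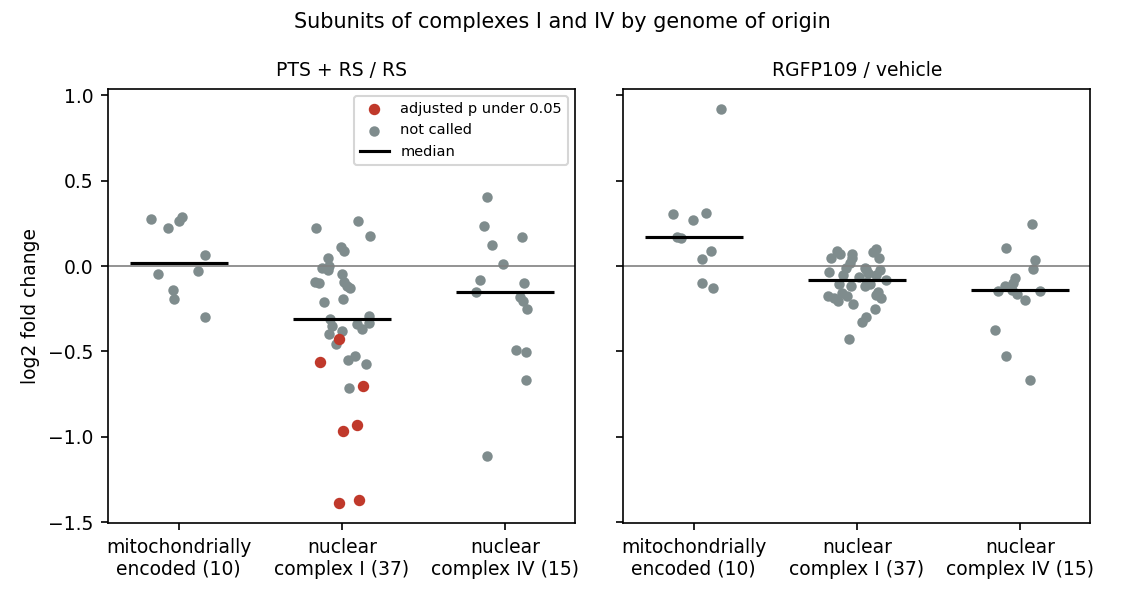
Log2 fold changes of the 10 mitochondrially encoded genes, 37 nuclear complex I subunits and 15 nuclear complex IV subunits (1 point per gene, horizontal jitter only; line, median; red, adjusted p under 0.05) in PTS + RS over RS and in RGFP109 over vehicle. In the first comparison the medians are 0.02, -0.31 and -0.15.

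Lists of genes that make or read mitochondrial RNA, or serve biogenesis and assembly, were looked at beside the 3.55% called over all tested genes. Lists this small hold few calls at such a share. Of 19 genes for transcription and maintenance of mitochondrial DNA 0 were called in either direction; Mterf2 and Mterf3, members of the mitochondrial terminator factor family, had the lowest p-values (log2 fold changes 0.52 and 0.31, adjusted p = 0.161 and 0.214). None of 18 tested genes for mitochondrial RNA processing and stability was called, nor any of 11 translation factors. Among 12 regulators of mitochondrial biogenesis, Esrra, the oestrogen-related receptor alpha, fell by 0.69 on the log2 scale (adjusted p = 0.0113), and Nfe2l2, the transcription factor NRF2, rose with a log2 fold change of 1.11 (adjusted p = 0.0156). Of 26 tested assembly factors, Cox14 fell by 0.66 (adjusted p = 0.0294).

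Cell type markers moved in the same comparison. All 10 microglia markers rose, with a median log2 fold change of 2.03, and their summed CPM was 1282 and 1514 in PTS + RS against 316 and 351 in RS. Of 10 astrocyte markers 5 rose and the median was 0.48, while of 10 neuron markers 0 were called and 7 were below 0. Of 10 oligodendrocyte markers and 10 endothelial markers 0 were called in each, with medians of 0.25 and 0.24. Of 10 striatum markers 1 fell, Ppp1r1b, by 0.78 on the log2 scale (adjusted p = 0.0475), and of the cortex, amygdala and olfactory bulb markers 0 were called. Choroid plexus markers were lower in 10 of 10 (median -1.87), of which 0 were called, and the list summed to 1663 CPM in PTS + RS replicate 1 and 52.1 in replicate 2. In bulk tissue, fewer cells of a type and less RNA per cell cannot be told apart, and the part of these shifts in the values of the 10 genes was not tested.

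The comparison of RGFP109 with vehicle asks what this inhibitor of HDAC1 and HDAC3 does in mice with stroke and restraint stress. In edgeR 0 of the 10 genes were called, and so were 0 of 17565 tested genes (0%), with DESeq2 and limma-voom giving 0 as well. At an unadjusted p under 0.05 there were 0 of the 10 genes and 206 genes in all, 1.17%. The log2 fold change (RGFP109 over vehicle) was above 0 in 8 of the 10 genes, with a median of 0.17, against -0.02 over all tested genes. Both RGFP109 libraries were above both vehicle libraries in 5 of the 10 genes (12.8% of all tested genes) and below in 0 (13.8%).

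The gene furthest from 0 was mt-Nd4l. Its levels were 24.5 and 17.9 CPM in the RGFP109 libraries and 14.3 and 8.05 CPM in the vehicle libraries, from 386, 384, 252 and 148 counts. The groups did not overlap, and the log2 fold change was 0.92 ± 0.36 (SE; unadjusted p = 0.0516, adjusted p = 1). Its fold had a 95% interval of 0.993 to 3.61. Leaving out vehicle replicate 1, the library with olfactory bulb markers, gave a log2 fold change of 1.39, and leaving out vehicle replicate 2 gave 0.57, neither called. With the counts of Gm10222 added it was 0.76. With the replicate number, which equals the tissue label here, as a block, the log2 fold change was 0.96 ± 0.24 with an interval of the fold of 1.26 to 3.02 (unadjusted p = 0.0121, adjusted p = 1, edgeR), and mt-Nd4l was then the 1 gene of the 10 at an unadjusted p under 0.05.

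Among the complex I genes without a full copy, mt-Nd5 had 3842 and 3751 CPM with RGFP109 and 3285 and 2851 CPM with vehicle, a log2 fold change of 0.31 ± 0.25. For mt-Nd6, 1036 and 1047 CPM stood against 936 and 792 CPM, a log2 fold change of 0.27 ± 0.21. The groups did not overlap in either gene, nor in mt-Nd1 (0.16 ± 0.26) and mt-Nd2 (0.17 ± 0.24). In mt-Nd4 they overlapped (0.09 ± 0.24), and in mt-Nd3 the value was -0.10 ± 0.25.

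In complex IV, mt-Co1 differed little between the groups as a whole, with a log2 fold change of 0.04 ± 0.33 and 14950 and 12920 CPM against 14800 and 12240 CPM. Each replicate 1 library was above each replicate 2 library here. For mt-Co2, 99.5 and 71.2 CPM overlapped 82.8 and 54.5 CPM (0.31 ± 0.29). For mt-Co3, 38.6 and 38.6 CPM in RGFP109 lay between 57.0 CPM in vehicle replicate 1 and 27.5 CPM in vehicle replicate 2 (-0.13 ± 0.37).

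The intervals in this comparison were wider, since the biological coefficient of variation over all genes was 32.1% here and 11.4% in PTS + RS and RS. The 95% interval of the fold was 0.785 to 1.95 for mt-Nd5 and 0.568 to 1.87 for mt-Co1. A 2-fold higher level with RGFP109 lay inside the interval for mt-Nd4l and mt-Co2 (0.738 to 2.09), and a 2-fold lower level for mt-Co3 (0.468 to 1.79). For the other 7 genes both lay outside. These intervals are from the fit without the replicate block. With the block the interval for mt-Co2 was 0.906 to 1.73 (log2 fold change 0.33 ± 0.18, adjusted p = 1, edgeR), that for mt-Nd5 reached 2.07 and that for mt-Co3 was 0.547 to 1.73. No nuclear complex I or IV subunit was called (0 of 37 and 0 of 15), with medians of -0.08 and -0.14, and 28 of 37 and 12 of 15 were below 0.

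Region markers differed between the same groups, with 0 called. Olfactory bulb markers were below 0 in 6 of 6 tested (median log2 fold change -3.98, 3 at an unadjusted p under 0.05). Choroid plexus markers were above 0 in 7 of 8 tested (median 3.44, 3 at an unadjusted p under 0.05). Microglia and neuron markers were above 0 in 7 of 10 each, with medians of 0.12 and 0.11. Their part in the values of the 10 genes was not tested.

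Replicate number and tissue label could not be told apart in the RGFP109 and vehicle groups, so replicate 2 was compared with replicate 1 with treatment as a term. In edgeR 0 of the 10 genes and 0 of 17565 genes (0%) were called, while DESeq2 called 207 genes, 0 of the 10 among them. At an unadjusted p under 0.05 there were 2 of the 10 genes, mt-Co2 and mt-Nd4l, beside 9.15% of all tested genes. Replicate 2 was lower in 9 of the 10 genes, with a median log2 fold change (replicate 2 over replicate 1) of -0.14 against -0.01 over all tested genes.

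For mt-Co2 the log2 fold change was -0.54 ± 0.18 (SE; adjusted p = 0.499), with 62.8 ± 11.8 CPM in replicate 2 and 91.1 ± 11.8 CPM in replicate 1 (SD, n = 2 each), and for mt-Nd4l it was -0.64 ± 0.24 (adjusted p = 0.541). The exception was mt-Nd3, with 33.1 and 39.7 CPM in replicate 2 above 29.0 and 26.9 CPM in replicate 1, a log2 fold change of 0.38 ± 0.21. For mt-Co1, 12920 and 12240 CPM in replicate 2 lay below 14950 and 14800 CPM in replicate 1 (-0.24 ± 0.34). The mitochondrial rRNAs took the other direction, 0.46 ± 0.27 for mt-Rnr1 and 0.32 ± 0.29 for mt-Rnr2, not called. All 10 striatum markers had higher values in replicate 2, with a median log2 fold change of 2.95. Each of the 10 was at an unadjusted p under 0.05 in edgeR, beside 9.15% of all tested genes. Cortex markers were above 0 in 10 of 10 (median 0.95), microglia markers in 9 of 10 (median 0.63) and oligodendrocyte markers in 8 of 10 (median 0.51). Amygdala markers were above 0 in 8 of 10 (median 0.62), although their summed CPM was lower in replicate 2. Choroid plexus markers were below 0 in 8 of 8 tested (median -1.93) and olfactory bulb markers in 5 of 6 (median -2.69). In each of these lists 0 genes were called, and their part in the values of the 10 genes was not tested.

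Among themselves, the 10 genes were compared by their deviations from the mean of their own table over the 8 libraries, as a description, since the points share libraries and scaling. For the 15 pairs among the 6 genes without a full copy, Pearson's r was between 0.35 and 0.99 with a median of 0.68. For the 6 pairs among the 4 copied genes it was between -0.46 and 0.77 with a median of 0.14. That lower median rested on mt-Nd3. Pairs with mt-Nd3 had r of -0.46, -0.37 and -0.15, and pairs without it had 0.43, 0.68 and 0.77. The gene mt-Nd3 was the one that went its own way, with r between -0.58 and -0.0018 to each of the other 9. The coefficient of variation of FPKM over the 8 libraries was 7.93% for mt-Nd1 and 15.1% for mt-Nd6, the lowest and highest of the 6, and 20.9% for mt-Nd3 and 49.2% for mt-Nd4l, the lowest and highest of the 4, whose counts were also far lower (130 to 1568 per library).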

How the data were processed

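The data came as a table for the PTS + RS and RS libraries and another for the RGFP109 and vehicle libraries. The authors deposited raw counts of reads per gene and FPKM values; per the labels and the study's methods, reads were aligned to GRCm38 (mm10) with STAR 2.4.0 and counted with HTSeq 0.6.1, with limma named for testing. The deposited FPKM equalled the count divided by gene length and 1 factor per library. The strand setting and the handling of reads with several matches were not given in the sources used here, and the labels and the study's methods name different library kits. Columns of the authors' own fold changes and p-values were not used, nor were 8 per-sample columns of normalized values. Genes of the second table were matched to identifiers by coordinates.

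Counts were tested within each table with edgeR 4.0.16 (TMM, filterByExpr, quasi-likelihood test, R 4.3.3), with Benjamini-Hochberg adjustment over all tested genes; a gene was called at an adjusted p under 0.05. Standard errors were taken from the log2 fold change and the F statistic. With 2 libraries per group an exact permutation test cannot give a p below 0.333, so single values were not tested that way. Alternatives were DESeq2 1.42.0, limma-voom 3.58.1, other scalings, no filter, a replicate block, counts of nuclear copies added, and each library left out. The edgeR fit was tested on simulated data. Their spread was set below the 32.1% of the RGFP109 and vehicle libraries, so that test does not show what the fit could detect there. Replicate libraries differed by more than sampling noise (chi-square per gene 4.60 to 75.5), so none was counted as a duplicate.

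Nuclear copies were found with blastn 2.17.0 among 141730 GENCODE M21 transcripts (at least 95% identity, 60 bases and 20% of the gene), whose mitochondrial coordinates equal those of the deposited tables. Named genes were the 10 genes, other mRNAs and rRNAs of chromosome MT, nuclear copies, at most 3 genes of each of 18 lists by lowest p per comparison, marker genes, and the 5 genes most like the 10. The members and lists were chosen with earlier results of these data known.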

Additional observations from a re-analysis of the deposited data

Results flagged for a closer look

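In 2 of the 10 genes the RGFP109 library lay on opposite sides of its vehicle library in the 2 replicate numbers. For mt-Nd3 the log2 ratio of RGFP109 over vehicle was 0.11 in replicate 1 and -0.26 in replicate 2. For mt-Co3 it was -0.56 in replicate 1 and 0.49 in replicate 2. Each ratio rests on 1 library per side, and the difference between the ratios was not tested. Both genes are copied nearly in full on chromosome 1. Of all tested genes, 51.3% had opposite signs in this way. In PTS + RS over RS, where all 4 libraries are labelled cortex, 5 of the 10 genes (mt-Nd1, mt-Nd3, mt-Nd4, mt-Co2 and mt-Co3) and 36.1% of all tested genes had opposite signs.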

How the results depend on the processing

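For PTS + RS against RS, 0 of the 10 genes were called under RLE size factors, TMM without chromosome MT, DESeq2, limma-voom, no filter, added nuclear copies and the replicate block. With library sizes set to mitochondrial mRNA counts 1 was called (mt-Co2, log2 fold change -0.49, adjusted p = 0.0236); this scaling moved the median of all genes to -0.20, that of the 10 genes to -0.18 and mt-Nd1 to -0.13, and the calls over all genes from 521 higher and 103 lower to 615 higher and 1524 lower. Added nuclear copies moved mt-Co3 to 0.051 and mt-Co2 from -0.30 to -0.17. Calls over all genes were 1835 without a filter. With 1 library left out, genes called among the 10 ranged from 0 to 2, all calls from 371 to 2691, and the median of the 10 from -0.079 to 0.16. The range was -0.036 to 0.17 for mt-Nd1, -0.39 to 0.033 for mt-Nd3, -0.13 to 0.070 for mt-Nd4, -0.25 to 0.15 for mt-Co3, -0.52 to -0.051 for mt-Co2 and 0.10 to 0.34 for mt-Nd2, the last pair with both ends from leaving out an RS library.

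For RGFP109 against vehicle, 0 of the 10 were called in every alternative run; 93 genes in all were called without vehicle replicate 2. Mitochondrial mRNA scaling moved mt-Nd4 to -0.019 and mt-Co1 to -0.060. With it 6 of the 10 genes were above 0 and 4 below, and their median was 0.057, against -0.12 over all tested genes. With 1 library left out the range was -0.36 to 0.22 for mt-Nd3, -0.077 to 0.18 for mt-Co1 and -0.55 to 0.48 for mt-Co3. For replicate 2 against replicate 1, leaving out a library left no residual degrees of freedom, so values carry no test: -0.18 to 0.055 for mt-Nd2, -0.24 to 0.029 for mt-Nd6 and -1.05 to 0.016 for mt-Co3. DESeq2 called 207 genes there against 0. The cause of these shifts was not tested.

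Deviations of same-numbered libraries had r = 0.04 in PTS + RS and RS, where the numbers are not shown to pair the samples, and 0.30 in RGFP109 and vehicle, where the number equals the tissue label. With the replicate block, 915 genes against 624 were called in PTS + RS against RS and 0 in RGFP109 against vehicle, 0 of the 10 in either. At an unadjusted p under 0.05 there were 0 of the 10 against 2 without the block in PTS + RS against RS, and 1 against 0 in RGFP109 against vehicle. The median of the 10 was 0.02 and 0.17.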

Other observations

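The tRNA gene mt-Te, chosen after its values were seen, was the mitochondrial gene outside the 10 that passed the test in PTS + RS against RS: it fell by 0.95 on the log2 scale (9.02 ± 1.29 CPM in PTS + RS and 17.5 ± 1.86 CPM in RS, SD, n = 2 each; adjusted p = 0.0314, edgeR). In RGFP109 against vehicle its log2 fold change was 0.36 ± 0.32 (SE; adjusted p = 1).

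Over the 8 libraries, the genes outside chromosome MT whose log2 CPM was most like the mean of the 10 genes were Tsr2 (Pearson's r = 0.92), Gm26935 (0.91), Efr3b (0.91), Trmt11 (0.90) and Rtl9 (0.89). They were picked as the highest of 16919 genes, so the values are descriptions. The mean of log2 CPM weights the 4 low, copied genes as much as the 6 abundant ones.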
